A study of Mus musculus with 6 samples.

Results

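Fatty acid synthesis and desaturation was followed through 10 mouse genes, which encode the enzymes that turn citrate and acetate into long-chain fatty acids and then add double bonds and carbon units. The genes were fixed by symbol as Acly, Acss2, Acaca, Fasn, Scd1, Scd2, Elovl5, Elovl6, Fads1 and Fads2, and all 10 were found among the 23504 genes listed. RNA-seq was available for 6 libraries of BMMs, macrophages grown in culture from bone marrow of C57BL/6 mice, of which 3 were treated with DASA-58, a small-molecule activator of the glycolytic enzyme PKM2, and 3 with an equal volume of DMSO, its solvent. Total RNA was taken after 3 days. The results of the study describe induction of both groups with RANKL, the cytokine that drives macrophages toward osteoclasts, while its methods name RANKL for the DASA-58 cells and leave the DMSO cells unclear. The methods write DASA-48 where the labels write DASA-58, and no concentration is given for this experiment. Neither source says whether the 3 libraries of a group came from separate mice or cultures, so that the p-values measure only the spread between these libraries, which may be technical.

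In the cytosol, ATP-citrate lyase (Acly) and acetyl-CoA synthetase (Acss2) supply acetyl-CoA, acetyl-CoA carboxylase (Acaca) converts it into malonyl-CoA, and fatty acid synthase (Fasn) builds palmitate from both. Elongases (Elovl5, Elovl6) lengthen the chain, stearoyl-CoA desaturases (Scd1, Scd2) make monounsaturated fatty acids, and the Δ5 and Δ6 desaturases (Fads1, Fads2) introduce double bonds into polyunsaturated fatty acids taken from the diet or medium. Many of these genes are known targets of the SREBP transcription factors and of the oxysterol receptors LXRα and LXRβ, and their products shape membrane fluidity and the supply of lipid mediators. Transcripts were measured here, and neither the lipids nor the enzymes.

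The genes of 3 desaturases were higher with DASA-58, and the genes from acetyl-CoA supply to palmitate were not. Fads2 rose to 196.7% of its level in DMSO, Fads1 to 120.3% and Scd2 to 114.8%, while Acly, Acaca, Elovl5 and Elovl6 stood between 93.6% and 107.5% and Fasn at 88.1% without passing the test. Each comparison was made on log2(FPKM + 1) with limma for 10965 genes whose mean reached 1 FPKM (fragments scaled by the length of the gene and the depth of the library), and a gene was called at an adjusted p under 0.05. On this scale the fold change of a gene with low FPKM is understated. Among the 8 members that passed the filter, 3 were called higher and 0 lower, beside 4.24% of all tested genes called higher and 7.28% called lower. One member, Fasn, had an unadjusted p under 0.05 in the lower direction, and limma-voom on fragments recovered from the FPKM values called 1 member lower, also Fasn. The median log2 fold change of the 8 was 0.041, and that of all genes tested was -0.028. Acss2 and Scd1 did not reach the filter and were not tested.

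Of the promoters, those of Fads2, Fasn and Elovl5 are shown, since these 3 members held groups that did not overlap and had an entry in the RefSeq windows of GRCm38.p6, which run from 250 bases before to 50 bases after the annotated start. Fads1, Scd1 and Scd2 had no entry, and 7 of the 10 members had one. Capitals mark the letters CCAAT (bound by NF-Y), GGGCGG (bound by Sp1) and CACGTG (the E-box) on either strand, so that CCAAT may read ATTGG. The windows of Fads2 (chr19:10101454-10101753, minus strand), Fasn (chr11:120824498-120824797, minus strand) and Elovl5 (chr9:77917115-77917414, plus strand) read as follows from 5′ to 3′.
Fads2: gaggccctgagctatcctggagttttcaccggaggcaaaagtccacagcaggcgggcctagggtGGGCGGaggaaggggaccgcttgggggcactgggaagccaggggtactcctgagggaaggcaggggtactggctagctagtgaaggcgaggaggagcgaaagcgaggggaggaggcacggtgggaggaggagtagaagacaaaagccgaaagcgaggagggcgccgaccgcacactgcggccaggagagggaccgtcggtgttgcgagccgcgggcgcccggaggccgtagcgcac
Fasn: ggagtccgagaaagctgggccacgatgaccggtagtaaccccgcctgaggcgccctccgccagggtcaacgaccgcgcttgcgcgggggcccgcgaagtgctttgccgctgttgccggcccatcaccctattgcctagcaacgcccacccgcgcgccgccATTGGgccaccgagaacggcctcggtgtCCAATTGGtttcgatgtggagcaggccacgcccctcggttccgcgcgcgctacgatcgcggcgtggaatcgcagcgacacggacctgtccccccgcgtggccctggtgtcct
Elovl5: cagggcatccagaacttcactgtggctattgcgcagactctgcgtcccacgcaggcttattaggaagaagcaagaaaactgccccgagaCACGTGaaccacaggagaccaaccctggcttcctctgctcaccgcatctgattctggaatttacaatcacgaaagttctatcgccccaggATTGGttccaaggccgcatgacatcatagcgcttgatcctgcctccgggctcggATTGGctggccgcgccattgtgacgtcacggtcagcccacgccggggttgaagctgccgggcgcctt

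The Fads2 window held 1 GGGCGG and no CCAAT. Almost all of this window lies inside the span of the gene (chr19:10062765-10101746, minus strand), so its letters do not describe the sequence before that span. The Fasn window held 3 CCAAT, of which one pair lies on opposite strands and overlaps in the run CCAATTGG. Elovl5 held 2 CCAAT, both as ATTGG, and 1 CACGTG. Over all 32851 windows, CCAAT was in 37.4%, GGGCGG in 35.7% and CACGTG in 7.15%. The core of the SREBP element, CACCCCAC, was in 2.87% of all windows and in none of the 7 windows of members, and the LXR element, AGGTCA repeated after a spacer of 4 bases, was in 0.0152% of all windows and also in none of the 7. Among the members not printed, Acss2 held 1 CCAAT and 5 GGGCGG, Acly held 1 and 4, and Acaca and Elovl6 held none of the letters searched. The Acaca window (chr11:84195188-84195487) lies well inside the gene (chr11:84129672-84401651), so its lack of these letters does not describe the sequence before the gene. All counts describe the letters of the windows and say nothing of binding.

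Acly was the most abundant member, and neither it nor Acss2 differed between the groups beyond the spread of the libraries. Acly (chr11:100476353-100528000, minus strand, GRCm38), which splits citrate exported from mitochondria, stood at 39.1, 37.2 and 38.9 FPKM in the 3 DMSO libraries and at 36.7, 37.7 and 37.1 FPKM with DASA-58. The groups overlapped, with means ± SD over 3 libraries of 38.4 ± 1.05 and 37.2 ± 0.481 FPKM, and the log2 fold change was -0.046 (standard error 0.0315, 95% interval -0.12 to 0.027, adjusted p = 0.39). Acss2 (chr2:155517948-155585724, plus strand), which activates free acetate, was at 0.837, 0.538 and 0.605 FPKM with DMSO and at 0.857, 0.676 and 0.654 FPKM with DASA-58. The highest DMSO library lay above 2 of the 3 DASA-58 libraries. The gene overlaps Gss and Ggt7, which are read from the other strand and share 50-base words with its exons, and the use of strand in counting is not stated, so part of this low level may belong to them.

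Acaca (chr11:84129672-84401651, plus strand), whose product makes the malonyl-CoA that both synthesis and elongation consume, was at 2.1, 2.29 and 2.25 FPKM with DMSO and at 2.20, 2.04 and 1.97 FPKM with DASA-58. One DASA-58 library lay inside the DMSO range, and the log2 fold change of -0.065 (standard error 0.0634, 95% interval -0.21 to 0.082) did not pass the test (adjusted p = 0.56). Of the 50-base words of its exons, 30.4% recur in other annotated genes, which limits how its reads could be assigned.

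Fasn (chr11:120805846-120824547, minus strand), the multienzyme that builds palmitate, was at 8.81, 8.98 and 8.20 FPKM with DMSO and at 7.09, 8.16 and 7.64 FPKM with DASA-58. All 3 DASA-58 libraries lay below all 3 DMSO libraries, although the highest of the former and the lowest of the latter were close. Mean and SD were 8.66 ± 0.412 and then 7.63 ± 0.536 FPKM (n = 3 each), a log2 fold change of -0.16 (standard error 0.0575, 95% interval -0.30 to -0.031), with an unadjusted limma p of 0.022 and an adjusted p of 0.11. Limma-voom on the recovered fragments gave -0.19 with an adjusted p of 0.0099, which passes the threshold, while over all alternatives the adjusted p ranged from 0.0099 to 0.27. The sum of Acly, Acss2, Acaca and Fasn was between 49.0 and 50.9 FPKM with DMSO and between 46.9 and 48.6 FPKM with DASA-58, or 95.3% of DMSO, of which Acly makes up most.

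**Figure D1:**
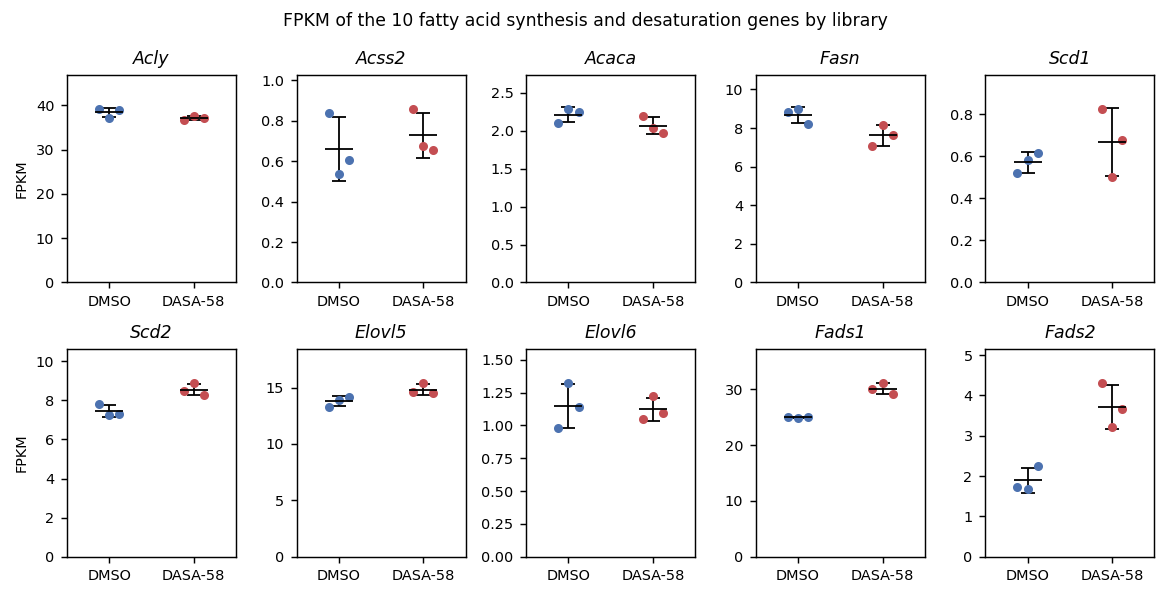
FPKM of each of the 10 members (vertical axis, from 0, with its own range for each gene) in the 3 DMSO libraries (blue) and the 3 DASA-58 libraries (red), with the group mean and SD in black. The groups stand apart upward for Fads1, Fads2, Scd2 and Elovl5 and downward for Fasn, and they overlap for the other 5.

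The 2 stearoyl-CoA desaturase genes lie close together on chromosome 19, Scd2 at chr19:44293674-44306864 on the plus strand and Scd1 at chr19:44394455-44407879 on the minus strand in GRCm38, and were expressed at very different levels. Scd2 was at 7.81, 7.23 and 7.29 FPKM with DMSO and at 8.47, 8.86 and 8.30 FPKM with DASA-58. All 3 DASA-58 libraries were above the DMSO libraries, and the mean rose from 7.44 ± 0.317 to 8.54 ± 0.289 FPKM (SD, n = 3 each), which is 0.18 on the log2 scale (95% interval 0.071 to 0.28, standard error 0.0457, adjusted p = 0.045). This call was close to the threshold and was lost in 11 of 18 alternatives, among them each of the 6 that left out a library, where the adjusted p lay between 0.056 and 0.13 and the log2 fold change between 0.15 and 0.21.

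Scd1, the form best known from liver and adipose tissue, stood at 0.518, 0.581 and 0.613 FPKM with DMSO and at 0.824, 0.5001 and 0.676 FPKM with DASA-58. The DASA-58 libraries held both the highest and the lowest value, so the groups overlapped. The recovered fragments were 46, 53 and 54 with DMSO and 75, 44 and 62 with DASA-58 at the fitted length nearest the annotated one. A length of 9672 bases also gave whole fragments. With no filter on low values the adjusted p was 0.70. Scd2 was 11.9 to 15.1 times as high as Scd1 in the DMSO libraries and 10.3 to 17.7 times as high in the DASA-58 libraries. The 2 genes share 4.56% and 3.97% of their 50-base words with members of the Scd family, so a small part of the reads may be split between them. Of the other 2 family members, Scd3 was listed at 0 in 5 libraries and Scd4 at 0 in 4, and the highest value of either was 0.0434 FPKM.

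Both elongase genes differed little. Elovl5 (chr9:77917364-77984519, plus strand), which lengthens polyunsaturated chains between the Δ6 and Δ5 desaturation steps, was at 13.3, 13.9 and 14.2 FPKM with DMSO and at 14.6, 15.4 and 14.5 FPKM with DASA-58. The groups did not overlap, but the gap was small, and the log2 fold change of 0.097 (standard error 0.0403, 95% interval 0.0040 to 0.19) had an adjusted p of 0.16. Elovl6 (chr3:129532355-129638495, plus strand), which takes palmitate to stearate, stood at 0.983, 1.32 and 1.14 FPKM with DMSO and at 1.05, 1.22 and 1.10 FPKM with DASA-58. All 3 DASA-58 libraries lay inside the DMSO range, and the 95% interval of the log2 fold change ran from -0.22 to 0.19 around -0.015 (adjusted p = 0.94), with a sign that turned under quantile normalization and median centring.

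Fads1 and Fads2, the genes of the Δ5 and the Δ6 desaturase, gave the clearest differences. They lie on opposite strands of chromosome 19 with their starts 81142 bases apart, Fads1 at chr19:10182888-10196877 on the plus strand and Fads2 at chr19:10062765-10101746 on the minus strand in GRCm38. Fads1 was at 25.06, 24.92 and 25 FPKM in the DMSO libraries, which were nearly equal, and at 30.09, 31.03 and 29.06 FPKM with DASA-58. The lowest DASA-58 library was well above every DMSO library. The mean rose from 24.99 ± 0.0661 to 30.1 ± 0.987 FPKM (SD, n = 3 each), which is 0.26 on the log2 scale (95% interval 0.18 to 0.33, standard error 0.0334, adjusted p = 0.0033).

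Fads2 was at 1.74, 1.69 and 2.26 FPKM with DMSO and at 4.30, 3.21 and 3.67 FPKM with DASA-58. Every DASA-58 library stood above every DMSO library, and the ranges within the groups were wider than for Fads1. The mean rose from 1.89 ± 0.316 to 3.73 ± 0.546 FPKM (SD, n = 3 each), a ratio of 1.97 and a log2 fold change of 0.71 on the scale with the pseudocount (standard error 0.107, 95% interval 0.46 to 0.95, adjusted p = 0.0063). Of the 10965 genes tested, 18 rose by a log2 fold change of at least this size, Fads2 included, while the 95th percentile was 0.20. Genes that fell by as much are not in this count. The fragments behind the 6 values, in the order given, were 96, 96, 124, 244, 176 and 210 with a length of 3016 bases. This was the fitted length nearest to the annotated one. Lengths of 1508, 4524 and 6032 bases also gave whole fragments, and the shortest gave 48, 48, 62, 122, 88 and 105. Fads1 was called in all 18 alternatives. Fads2 was called in 16 of the 17 that gave it a test, the exception being the model without variance shrinkage (adjusted p = 0.073). The log2 fold change of Fads2 lay between 0.34 with a pseudocount of 5 and 0.98 with limma-voom, which used the fragments at 3016 bases. The exact permutation test of 3 libraries against 3 cannot go below p = 0.10, two-sided, and gave that value for Fads1, Fads2, Scd2, Elovl5 and Fasn alike.

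**Figure D2:**
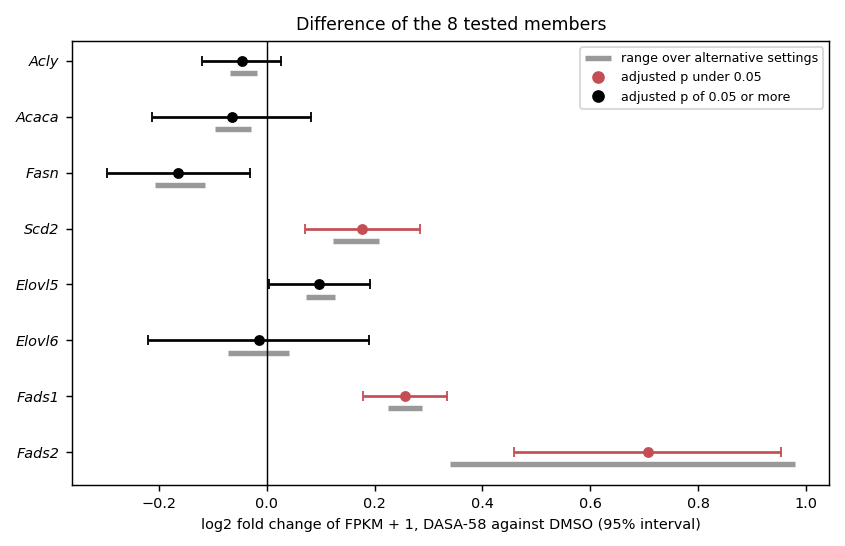
Log2 fold change of FPKM + 1 with DASA-58 against DMSO (horizontal axis) for the 8 tested members, as the limma estimate (point) with its 95% interval (line), and below each the range of the estimate over the alternative settings (grey bar). Fads2 (0.71), Fads1 (0.26) and Scd2 (0.18) passed the test and their intervals lie above 0, the intervals of Acly, Acaca and Elovl6 hold 0, and Fasn (-0.16) and Elovl5 (0.097) did not pass after adjustment.

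Over the 8 tested members, the groups did not overlap in 4 genes that were higher and 1 that was lower, beside 11.8% and 21.6% of all tested genes. The summed FPKM of the 10 members lay between 98.7 and 100.4 with DMSO and between 104.6 and 108.7 with DASA-58. Fads1 and Fads2 together went from 26.9 ± 0.330 to 33.8 ± 0.917 FPKM (SD, n = 3 each), Scd1 and Scd2 together from 8.01 ± 0.274 to 9.21 ± 0.209, and Elovl5 and Elovl6 together from 14.9 ± 0.584 to 15.9 ± 0.556. These sums follow their most abundant member and were not tested.

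In the DMSO libraries the order of FPKM levels ran from Acly through Fads1, Elovl5, Fasn, Scd2, Acaca, Fads2, Elovl6 and Acss2 to Scd1. The ranges of Acaca and Fads2 overlapped, as did those of Acss2 and Scd1, and the other neighbours were apart. With DASA-58 the order was the same except that Scd2 stood above Fasn and Fads2 above Acaca, each without overlap. Acss2 and Scd1 again overlapped.

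The balance within pairs of members was taken as the log2 ratio of their FPKM in each library, which does not depend on the scaling between libraries. For Fads1 against Fads2 the ratio was 11.1 to 14.8 with DMSO and 7.003 to 9.67 with DASA-58. The groups did not overlap, and the mean log2 ratio went from 3.74 ± 0.231 to 3.02 ± 0.235 (SD, n = 3 each), a difference of -0.71 with p = 0.10 in the exact two-sided permutation test, the smallest that 3 against 3 allows, and 0.60 after adjustment over the 6 pairs. The other 5 pairs overlapped, with differences in log2 ratio of -0.0024 for Scd1/Scd2, -0.13 for Elovl6/Elovl5, 0.21 for Acss2/Acly, 0.088 for Acaca/Fasn and 0.38 for Scd1/Fasn, and exact permutation p-values from 0.30 to 1. With this number of libraries no pair could pass the threshold, so these p-values do not show that the ratios were alike.

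**Figure D3:**
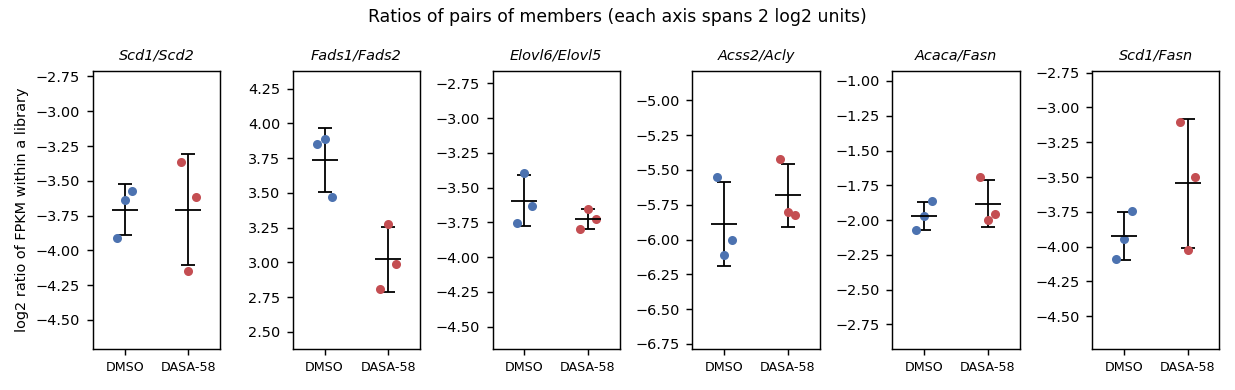
Log2 ratio of the FPKM of 2 members within a library (vertical axis, spanning the same number of log2 units in each panel) for 6 pairs, in DMSO (blue) and DASA-58 (red) libraries with mean and SD in black. The ratio of Fads1 to Fads2 separates the groups, from 3.74 to 3.02 on average, and the groups overlap in the other 5 pairs.

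Genes that work beside the members were taken from lists of the pathway, beside 4.24% of all tested genes called higher and 7.28% called lower. Of 12 other tested genes of elongation and desaturation, 3 were called higher and 0 lower, with a median log2 fold change of 0.071. Cyb5a, whose cytochrome b5 passes electrons to the desaturases, was at 89.2, 88.2 and 90.8 FPKM with DMSO and at 105.5, 108.4 and 107.5 FPKM with DASA-58. It rose without overlap by 0.26 on the log2 scale (standard error 0.0260, adjusted p = 0.0011), the size seen in Fads1. The other 2 serve the elongation cycle, namely Hsd17b12, the ketoreductase (58.8 ± 1.61 to 68.3 ± 2.58 FPKM, log2 fold change 0.21, adjusted p = 0.0098), and Hacd4, a dehydratase (11.3 ± 0.564 to 14.1 ± 0.762 FPKM, log2 fold change 0.29, adjusted p = 0.012). Without variance shrinkage the calls of Hsd17b12 and Hacd4 were lost (adjusted p = 0.068 and 0.080), and that of Hacd4 also with no filter on low values (adjusted p = 0.0504). Fads3, Degs1, Cyb5b and Cyb5r3 of the same list, named here after their values were seen, did not pass the test. Their log2 fold changes were 0.15, 0.11, 0.024 and 0.042, with adjusted p-values from 0.071 to 0.76. Degs1 and Cyb5r3 were higher without overlap. Among 10 other tested genes of synthesis and precursor supply, Me1 rose and Mid1ip1 fell. Me1, the malic enzyme that yields cytosolic NADPH, went from 4.10 ± 0.451 to 5.62 ± 0.229 FPKM (log2 fold change 0.38, adjusted p = 0.013). Mid1ip1, which promotes polymerization of acetyl-CoA carboxylase, went from 25.3 ± 0.255 to 22.5 ± 0.544 FPKM (log2 fold change -0.16, adjusted p = 0.017). The call of Me1 was lost without DASA-58 replicate 1 (adjusted p = 0.052), with no filter on low values (0.060) and without variance shrinkage (0.085), and that of Mid1ip1 without DMSO replicate 1, DASA-58 replicate 1 or DASA-58 replicate 2 (adjusted p = 0.056, 0.062 and 0.058).

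Of 22 tested transcriptional regulators, 3 were called higher and 2 lower, with a median of -0.050. The shares over all tested genes were 4.24% higher and 7.28% lower, and the count lower was near its share. Srebf1, whose SREBP-1 products act mainly on fatty acid genes, stood at 18.2, 19.2 and 17.8 FPKM with DMSO and at 16.8, 17.1 and 16.9 FPKM with DASA-58. It was lower without overlap, but the log2 fold change of -0.11 did not pass the test (adjusted p = 0.10). Srebf2, whose product acts mainly on cholesterol genes, was at 30.2, 28.4 and 28.8 FPKM and then at 35.9, 35.3 and 34.1 FPKM, and it rose by a log2 fold change of 0.26 (adjusted p = 0.0044). The difference between the 2 was not tested. Insig1, which retains the SREBP precursors in the endoplasmic reticulum and is itself an SREBP target, rose from 10.2 ± 0.370 to 14.1 ± 0.580 FPKM (log2 fold change 0.44, adjusted p = 0.0012). Scap, Insig2, Nr1h2 (LXRβ) and Nr1h3 (LXRα) had log2 fold changes of -0.087, 0.12, 0.030 and -0.11 and adjusted p-values from 0.14 to 0.64. Mlx, the partner of the carbohydrate-responsive factor, was at -0.015 (adjusted p = 0.89) with a sign that turned with the scaling, and Mlxipl, which encodes that factor, was listed at no more than 0.0298 FPKM.

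The remaining regulators called were Rxra, the partner of the LXRs (log2 fold change 0.30, adjusted p = 0.0041), Ppargc1b, a coactivator (-0.33, adjusted p = 0.018), and Usf2, an E-box factor named here after its values were seen (-0.16, adjusted p = 0.048). In the list of cholesterol synthesis, a pathway that shares SREBP control with the members, 12 of 19 tested genes were called higher and 0 lower, with a median log2 fold change of 0.30 beside 0.041 for the members. This list was chosen with its values known, and its counts are a description. Of all tested genes, 4.24% were called higher and 7.28% lower. Its genes Cyp51, Msmo1 and Sqle rose by log2 fold changes of 0.55, 0.51 and 0.48, with adjusted p-values between 8.5e-04 and 0.0025. Among the members, Fads2 alone exceeded these 3 values.

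Called genes of uptake and use of fatty acids went in both directions, beside 4.24% of all tested genes called higher and 7.28% called lower. The glycerolipid and oxidation counts below were near these shares. In uptake and binding, 4 of 10 tested genes were called higher and 1 lower. Cd36, a scavenger receptor that takes up fatty acids and oxidized lipoprotein, was at 335.7, 342.4 and 361.7 FPKM with DMSO and rose to 489.4, 511.5 and 496.7 FPKM with DASA-58 (log2 fold change 0.53, adjusted p = 1.4e-04). Msr1, another scavenger receptor, and Fabp5, a fatty acid binding protein, rose by 0.34 and 0.19, and Slc27a1, a fatty acid transporter, fell by 0.23 on the log2 scale, with adjusted p-values from 0.0017 to 0.0054. Of 23 tested acyl-CoA synthetase and glycerolipid genes, 0 were called higher and 2 lower by limma, Acsl1 (20.1 ± 0.989 to 14.6 ± 0.521 FPKM, log2 fold change -0.43, adjusted p = 0.0012), which activates long-chain fatty acids, and Lpcat1 (-0.20, adjusted p = 0.031), which acylates lysophosphatidylcholine. Of 21 tested oxidation genes, Acaa2 and Acads of mitochondrial β-oxidation fell by 0.18 and 0.21 on the log2 scale and the acyl-CoA thioesterase Acot1 rose by 0.29, with adjusted p-values from 0.021 to 0.040. Several of these calls lay close to the threshold, and those of Acaa2, Acads, Acot1, Lpcat1 and Ppargc1b were lost in 6, 12, 9, 9 and 6 alternatives.

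**Figure D4:**
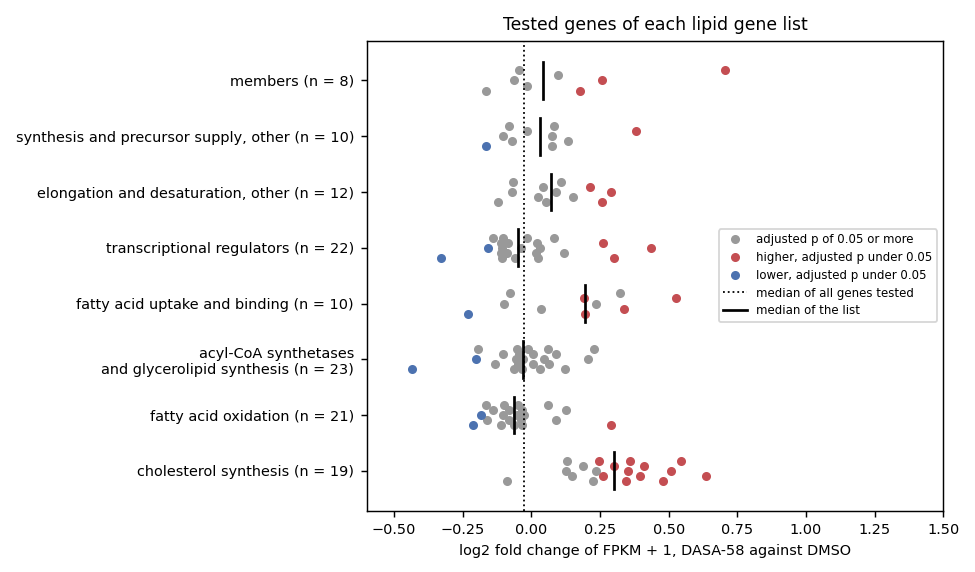
Log2 fold change of FPKM + 1 with DASA-58 against DMSO (horizontal axis) for each tested gene of 8 lists (rows), coloured by the limma call, with the median of the list (solid bar) and of all tested genes (dotted line). The median of the members is 0.041 and that of the cholesterol synthesis list is 0.30, and Fads2 lies farthest to the right of all genes plotted.

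Several values of the libraries moved with the groups beside these results. The marker counts below stand beside 4.24% of all tested genes called higher and 7.28% called lower. Markers of osteoclasts were lower with DASA-58 in 10 of 11 tested genes, and their summed level went from 841 to 894 FPKM in the DMSO libraries down to 507 to 525 FPKM, with Mmp9 at a log2 fold change of -0.75. Neutrophil markers were lower in 4 of 8 tested genes and higher in 1, with sums of 179 to 184 FPKM with DMSO and 146 to 152 FPKM with DASA-58 and S100a9 at -0.28. Macrophage markers were higher in 4 of 11 tested genes and lower in 2, with sums of 16570 to 17410 and 17520 to 19830 FPKM, most of it Lyz2 (log2 fold change 0.15, adjusted p = 0.11). The part of these markers in the differences of the members was not tested, and in bulk RNA fewer cells of a type and less RNA per cell cannot be told apart. Adipocyte markers, of which 5 of 10 were listed, reached no more than 0.134 FPKM, and Adipoq and Lep were not among those listed. Of the stromal, the lymphocyte, and the erythroid and mast cell markers only 3, 1 and 0 reached the filter, and 0 of these were called. These are too few genes to set beside the shares over all tested genes. The most abundant of each list were Col1a1 (log2 fold change 0.044, adjusted p = 0.51), Cd4 (-0.030, adjusted p = 0.75) and Kit (at most 0.159 FPKM, not tested). Col3a1 was lower without overlap but did not pass the test (-0.21, adjusted p = 0.13). Pkm, the gene of the drug target, stood at 575.2 ± 9.70 FPKM in the DMSO group and at 574.9 ± 6.09 FPKM in the other (SD, adjusted p = 0.99), with a sign that turned with the scaling. The depth recovered from the FPKM values was 18191560 to 18968556 fragments per library.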

How the data were processed

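RNA-seq of 6 libraries (3 DMSO, 3 DASA-58) entered, and each sample's group was taken from its treatment label. The FPKM values were made and deposited by the authors in 1 table, whose 6 value columns were all used. HISAT2 2.1.0, HTSeq 0.6.0 and build mm8 are named in the submitters' processing notes, and strand is not given in the sources used here. Gene symbols (23455 of 23504 identifiers) and positions came from GENCODE mouse release M21 on GRCm38, another build than the one named. With its union exon lengths, FPKM values of 21368 genes (90.9%) were whole fragments within 0.02 in every library, a fitted length within 30% served 1947 more, and 189 were not recovered. The depth this gave bounds precision by counting error only.

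The members and gene lists were chosen with earlier results of these data known. FPKM values plus a pseudocount of 1 were log2 transformed and fitted in limma 3.58.1 (R 4.3.3) for genes with a mean of 1 FPKM or more, using eBayes with trend, and p-values were adjusted over these 10965 genes (Benjamini-Hochberg). All adjusted p-values in the text are from this fit unless another is named. Standard errors, intervals and percentages of DMSO refer to 3 libraries a group. Ratios of members within a library were compared by exact two-sided permutation tests (SciPy 1.17.1). Named were the 10 members, 9 regulators, up to 4 called genes with the smallest p of each related list, the most abundant gene of each marker list, and Pkm. A few more genes of the lists were named after their values were seen. Promoter windows were searched on both strands. Alternatives were 2 pseudocounts (0.1, 5), 2 filters, 4 scalings, 2 variance models, the replicate number as a block, limma-voom on recovered fragments, and each of the 6 libraries left out. The code was tested on simulated data. Identity of the proteins was not analysed here. Some genes that this rule selects are not reported here.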

Additional observations from a re-analysis of the deposited data

How the results depend on the processing

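Fads1 kept its call in all 18 alternatives and Fads2 in 16 of 17. The 3 members called higher became 1 without variance shrinkage, where Scd2 (adjusted p = 0.0995) and Fads2 (adjusted p = 0.073) were lost, and 2 when any 1 library was left out. No filter on low values, equal library totals and no trend in the variance also gave 2, without Scd2. A filter at a mean of 5 FPKM gave 2 as well, since Fads2 was not tested there. The 0 members called lower became 1 with voom (Fasn), and stayed at 0 with each library left out. Of all genes, 465 were called higher and 798 lower. These counts were 257 and 372 with no filter on low values, 227 and 314 without variance shrinkage, and 710 and 1295 with voom. Without trend 515 were lower. Quantile normalization gave 600 and 588, equal library totals 386 and 958, centring on the median 597 and 504, and trimmed means 596 and 508. Leaving out 1 library gave 273 to 373 higher and 385 to 604 lower. Pairing by replicate number did not show in the correlations of same-numbered deviations (-0.016, 0.016 and -0.016), which lay within the range of the others (-0.046 to 0.061). This does not exclude a weak pairing. The replicate block gave 2 members higher, with 378 genes higher and 579 lower. Signs turned for values near 0: Elovl6 (0.0077 quantile, 0.011 centred, -0.072 to 0.041 with a library left out), Mlx (0.0043, 0.011, 0.011 trimmed, -0.068 to 0.037), Pkm (0.045, 0.026, 0.028, -0.015 to 0.0066) and Cd4 (0.0034 quantile). With a library left out, the difference in Scd1/Scd2 ran from -0.18 to 0.22 and that in Acaca/Fasn from -0.0069 to 0.15. The cause was not tested. Scd1 and Acss2 did not reach the filter of 1 FPKM, and with no filter their adjusted p was 0.70 and 0.79.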
